A study of Mus musculus with 18 samples.

Results

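Late AGi cultures are unsorted bulk cultures of reprogrammable mouse embryonic fibroblasts (Rep-MEFs) that had expressed OKSM, the reprogramming factors Oct4, Klf4, Sox2 and Myc, together with AGi for 8, 10 or 12 days. AGi is ascorbic acid plus a GSK3 inhibitor. By their labels these 3 arrays were set against 3 pluripotent arrays: wild-type embryonic stem cells (ESCs), induced pluripotent stem cells made from fibroblasts (Fibroblast-iPSCs, labelled as derived with 4 days of AGi) and iPSCs made from granulocyte-macrophage progenitors (GMP-iPSCs, labelled as derived with 2 days of AGi). Together they are 6 of the 18 arrays of the series. All came from mice of the strain Black6-129X1/SvJ, and 1 array was hybridised per day or line. Uninduced MEFs without dox (1 array) and cultures with OKSM alone on days 8, 10 and 12 (1 array each) served as points of reference and entered no test.

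The design has limits that touch every value. The 3 days stand in for replicates of a late culture, and 3 lines of different origin stand in for replicates of a pluripotent line, so the spread holds a time course on one side and line differences on the other. Nothing says that the days were separate cultures, and p-values measure only the spread between these arrays, which may be technical. The pluripotent cells are established lines and the cultures are mixtures still expressing OKSM, so a lower value in the cultures may come from fewer cells expressing a gene or from less RNA per cell, and these cannot be told apart. Medium was chosen by cell type per the labels, and medium and group cannot be told apart either.

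During reprogramming, fibroblasts lose the matrix, surface and transcription factor genes of mesenchymal cells early, gain epithelial genes, and switch on the pluripotency network last. Oct4, Sox2 and Nanog hold that network together. Genes that depend on removal of DNA methylation or on the finished network, such as Dppa4, Utf1 and germline genes, are known as late members. A comparison of late cultures with finished lines therefore shows which genes stood short of the level in the lines, and which stood beyond it. It does not show whether a step was incomplete within cells or complete in fewer of them.

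Levels are log2 values as deposited, and each difference is late AGi minus pluripotent, on the log2 scale with limma's standard error (n = 3 arrays each). A gene was called where the Benjamini-Hochberg adjusted p was under 0.05 and the difference was at least 1 log2. Of 22180 measured genes, 13529 reached the median of their array on at least 3 of the 6 arrays and were tested. Values of cultures are listed for days 8, 10 and 12, and values of lines for ESCs, Fibroblast-iPSCs and GMP-iPSCs. Array medians lay between 6.32 and 6.33 in late AGi cultures and between 6.41 and 6.46 in the pluripotent lines. No detection call was used here, so whether values under these medians stood above background is unknown. The 23 background control probe sets averaged 5.85 over the 6 arrays and read 0.03 to 0.27 higher in the cultures, and many low values given below lie under that level. Hybridisation controls, which come from no cell, differed by −0.29 to 0.23, and of 39 labelling controls 1 had an adjusted p under 0.05, with a difference short of 1 log2.

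Late AGi cultures read higher than the lines for many fibroblast genes and lower for part of the pluripotency genes. Of the tested genes, 953 (7.04%) were higher and 381 (2.82%) lower in late AGi cultures, 1334 (9.86%) in all. These shares are the background for every list count below. On adjusted p alone, 2488 (18.4%) were higher and 1456 (10.8%) lower. The arrays of the groups did not overlap for 6645 genes (49.1%). With each array shifted to 1 median, the split was 657 higher and 646 lower in place of 953 and 381. That scaling moved the median difference of all tested genes to −0.22, against 0.01 as deposited, so small differences below depend on scaling. The count of lower genes was 253 without AGi day 8.

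The MEF array gave each call a direction. Genes lower in the cultures whose pluripotent mean was at least 1 log2 above MEFs were not yet activated (298 genes). Genes higher in the cultures whose pluripotent mean was at least 1 log2 below MEFs were not yet silenced (625 genes). Genes past the pluripotent level in the direction of the change were overshoots, 15 upward and 4 downward. The remaining calls, 313 higher and 79 lower, were of genes with pluripotent means within 1 log2 of MEFs. MEFs have 1 array and the classes share the pluripotent arrays with the test, so the classes are descriptions. The names say where levels stood on days 8 to 12, not that a gene had stayed on or off before: 64 of the 625 not yet silenced genes were higher on day 8 than on day 6 by at least 1 log2 in both arms. Some genes passed the low-value filter only through the group where they were high, and so had to differ: 36 not yet activated, 65 not yet silenced, 1 downward overshoot, and 47 higher and 17 lower genes of the remaining calls.

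The labels were checked against marker genes. Nanog, the core pluripotency factor, read 11.41, 11.78 and 12.08 in late AGi cultures, against 12.26, 12.32 and 12.27 in the pluripotent lines and 6.09 in MEFs. The summed level of 7 pluripotency markers was 62.2 to 73.0 in late AGi cultures and 75.2 to 76.1 in the lines, and 2 of these markers were called lower. The sum was thus lower in the cultures on all 3 days, but Nanog, Sox2, Esrrb, Zfp42 and Dppa5a were not called. The 7 fibroblast markers summed to 66.7 to 69.8 in late AGi cultures and 50.4 to 64.8 in the lines, with 5 called higher. The top of that range, 64.8, was the Fibroblast-iPSC array, whose share in the fibroblast results was measured by leaving it out. The Dppa5a probe set read 6.17 to 6.38 in late AGi cultures, 6.50 to 6.75 in the lines and 6.53 in MEFs, so it did not separate pluripotent cells from MEFs.

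Among the 5 largest shortfalls of the not yet activated genes, 4 belonged to 2 groups of neighbouring zinc finger genes, and the other was Zscan4e. Rex2 and Zfp981 lie on chromosome 4 and Zfp640 and Gm10324 on chromosome 13. Zinc finger genes of such clusters encode DNA-binding proteins, many of which hold retroelements silent. The promoters of these members are shown because genes of a cluster moved together and may be copies of each other. They are 300-base windows over the gene start and mostly upstream of it. The bases that probe sets read were not compared. Sequences are from RefSeq on GRCm38.p6, and capitals mark the GC box letters GGGCGGG, searched on both strands.
Rex2, chr4:147021600-147021899, plus strand: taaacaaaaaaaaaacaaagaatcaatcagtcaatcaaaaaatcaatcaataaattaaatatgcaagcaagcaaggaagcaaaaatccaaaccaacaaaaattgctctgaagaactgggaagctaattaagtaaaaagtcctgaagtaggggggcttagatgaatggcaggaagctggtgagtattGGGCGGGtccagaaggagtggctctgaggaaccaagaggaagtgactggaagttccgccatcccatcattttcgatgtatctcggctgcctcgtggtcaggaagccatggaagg
Zfp981, chr4:146514670-146514969, plus strand: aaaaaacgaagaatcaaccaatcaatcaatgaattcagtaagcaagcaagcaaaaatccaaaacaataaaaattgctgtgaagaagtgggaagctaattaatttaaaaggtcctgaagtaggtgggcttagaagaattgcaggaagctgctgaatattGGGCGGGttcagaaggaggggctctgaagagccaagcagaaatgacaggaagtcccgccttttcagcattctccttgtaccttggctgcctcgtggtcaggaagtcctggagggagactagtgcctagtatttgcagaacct
Zfp640, chr13:66680754-66681053, minus strand: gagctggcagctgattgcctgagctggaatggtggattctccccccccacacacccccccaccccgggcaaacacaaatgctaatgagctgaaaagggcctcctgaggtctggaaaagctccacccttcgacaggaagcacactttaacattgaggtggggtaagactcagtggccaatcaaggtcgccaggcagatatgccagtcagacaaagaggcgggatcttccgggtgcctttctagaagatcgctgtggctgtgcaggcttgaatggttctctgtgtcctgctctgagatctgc
Gm10324, chr13:66113203-66113502, plus strand: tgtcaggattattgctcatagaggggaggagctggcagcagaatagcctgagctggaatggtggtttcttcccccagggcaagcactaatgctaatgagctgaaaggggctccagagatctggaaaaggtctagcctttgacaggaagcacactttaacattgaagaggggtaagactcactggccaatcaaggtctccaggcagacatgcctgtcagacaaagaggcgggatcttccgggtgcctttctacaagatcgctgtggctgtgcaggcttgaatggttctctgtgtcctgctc
The Rex2 window shared 299 of 300 bases with that of Zfp600, 290 with Zfp979, 271 with Zfp980 and 237 with Zfp981, all of the same cluster. Zfp640 and Gm10324 shared 251. Windows of different clusters shared 168 to 179, so part of each count is shared by any pair of these windows. The motif was present in 25.8% of 27025 mouse promoters in the table, 47.0% of the tested genes' promoters and 46.6% of the 234 not yet activated genes that had one. The median number of CpG sites per window was 16.5 in not yet activated genes and 20 in all tested genes.

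Rex2 read 4.71, 5.58 and 7.61 in late AGi cultures, against 10.34, 10.91 and 11.05 in the pluripotent lines (−4.80 ± 0.68, adjusted p = 0.0041). On day 8 it was at the level of the MEF array, 4.82. Zfp981 read 6.06, 7.22 and 10.14 in the cultures, against 11.94, 12.30 and 12.37 in the lines (−4.40 ± 0.93, adjusted p = 0.0152). Zfp640 stood at 4.78, 6.45 and 10.03, against 10.75, 11.58 and 11.44 (−4.18 ± 1.20, adjusted p = 0.0402). Each of the 3 genes was lowest on day 8 and highest on day 12, and the groups did not overlap. Stretches were counted from the first to the last gene of a class, so both ends were members by construction. Tested genes beyond the ends were not counted. Along the chromosome 4 cluster, 8 of 12 tested genes were not yet activated, where 298 of all 13529 tested genes were. The other members were Zfp980, Zfp600, Zfp992, Gm21082, Zfp979 and Zfp534, with differences of −3.47 for Zfp980 to −1.93 for Zfp992. Along the chromosome 13 cluster it was 7 of 21, among them Zfp459 (−1.96 ± 0.46) and Gm10139 (−2.17 ± 0.25). These clusters were singled out after their values were seen. Whether probe sets of such copies share hybridisation was not tested, and their members are not taken as independent. Zfp640 lost its call in 5 of 6 fits that left out 1 array (without day 8, day 10 or any 1 line, adjusted p up to 0.119). Zfp981, Gm10324 and Gm21082 lost theirs without day 10 or GMP-iPSCs, as did Zfp459, with adjusted p up to 0.0762.

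**Figure D1:**
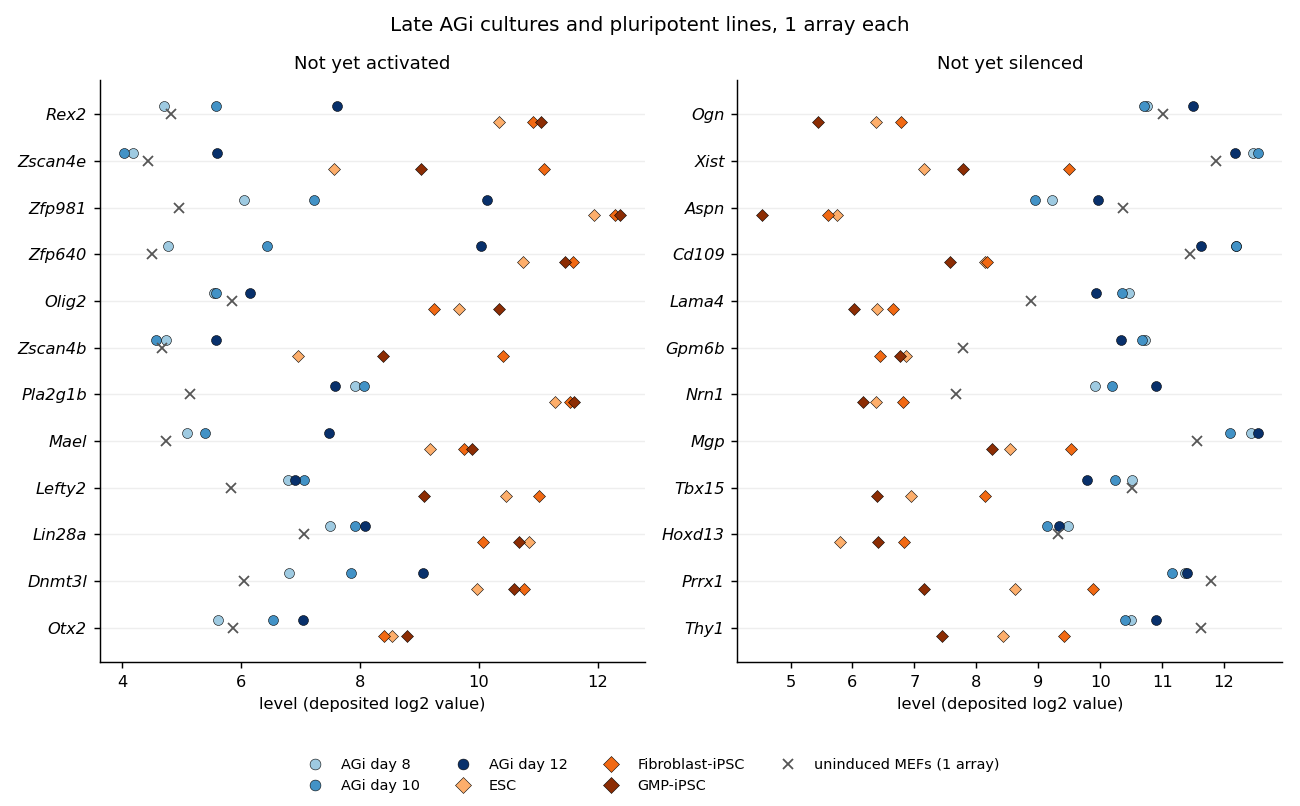
Levels (deposited log2 values, x axis) of 12 not yet activated genes (left) and 12 not yet silenced genes (right), 1 point per array: late AGi days 8, 10 and 12 in blue circles, the 3 pluripotent lines in orange diamonds and uninduced MEFs as a cross. Rex2 reached 7.61 on day 12, below the 10.34 of ESCs, and Ogn stood between 10.70 and 11.49 in the cultures, above the 6.78 of Fibroblast-iPSCs.

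Among pluripotency factors, 16 of the 37 tested (38 measured) were lower in late AGi cultures, with a median difference of −1.07 against 0.01 over all tested genes. The mean level of the 38 measured members was 8.78, 9.23 and 9.87 in late AGi cultures, against 10.44, 10.48 and 10.53 in the lines. Lin28a, an RNA-binding protein that blocks let-7 maturation, read 7.50, 7.91 and 8.09 in the cultures, against 10.85, 10.08 and 10.68 in the lines (−2.70 ± 0.24, adjusted p = 0.0012). Utf1, a chromatin-bound pluripotency factor, read 11.24, 11.57 and 12.09, against 12.92, 12.66 and 12.92 (−1.20 ± 0.22, adjusted p = 0.0090). Both stayed below every line on all 3 days, but Utf1 had covered 88.8% of the way between MEFs and the pluripotent mean by day 12. Prdm14, a repressor that guards the naive state, read 6.25, 7.23 and 8.21 in the cultures, against 8.58, 9.37 and 8.65 in the lines (−1.64 ± 0.48, adjusted p = 0.0426). The count of 16 depended on single arrays. It was 7 without day 8, 9 without day 10, 27 without day 12, 10 without ESCs, 11 without Fibroblast-iPSCs and 9 without GMP-iPSCs, and Prdm14 was called in 1 of those 6 fits (adjusted p up to 0.109).

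Several central factors missed the call. Sox2, a core factor and a reprogramming factor, read 9.20, 10.86 and 11.84 in late AGi cultures, against 12.19, 12.18 and 12.14 in the lines (−1.53 ± 0.59, adjusted p = 0.0929). Esrrb, an orphan nuclear receptor of naive cells, read 6.75, 7.52 and 8.78, against 8.38, 9.40 and 9.04 (−1.26 ± 0.51, adjusted p = 0.106). Nanog differed by −0.53 ± 0.17 (adjusted p = 0.0587). In Sox2 and Esrrb the day 12 array stood near the lines and the day 8 array far from them. Nanog was already near them on day 8, at 11.41 against 12.26 to 12.32 in the lines and 6.09 in MEFs. Tfcp2l1, a naive factor, read 9.79, 10.81 and 12.02 in the cultures, against 11.39, 12.08 and 12.03 in the lines (−0.96 ± 0.53, adjusted p = 0.207). Pou5f1, which encodes Oct4, differed by −0.93 ± 0.23 (adjusted p = 0.0240), short of 1 log2, and its probe set separated ESCs (8.13) from MEFs (6.80) by little. Klf4 differed by 0.51 ± 0.14 (adjusted p = 0.0336) and Myc by −0.92 ± 0.22 (adjusted p = 0.0229). Whether the probe sets of the OKSM factors read the induced copies is unknown.

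Of 29 tested late pluripotency markers (30 measured), 14 were lower, with a median of −1.45. Tdgf1, the Nodal co-receptor, read 9.92, 11.29 and 12.03 in late AGi cultures, against 12.80, 12.57 and 12.59 in the lines (−1.57 ± 0.48, adjusted p = 0.0490). Fgf4, the growth factor of the inner cell mass, read 10.09, 10.63 and 11.54, against 11.78, 12.01 and 12.08 (−1.20 ± 0.34, adjusted p = 0.0392). Dppa4, a chromatin protein of pluripotent and germ cells, read 6.98, 7.56 and 8.99, against 9.69, 9.67 and 9.70 (−1.85 ± 0.46, adjusted p = 0.0262). These 3 genes were called, but each lost its call in 5 of the 6 fits without 1 array (adjusted p up to 0.116 for Tdgf1, 0.114 for Fgf4 and 0.0883 for Dppa4). Lefty2, a secreted Nodal antagonist and Nodal target, behaved otherwise: it read 6.80, 7.05 and 6.91 in the cultures, against 10.46, 11.02 and 9.08 in the lines (−3.27 ± 0.45, adjusted p = 0.0038). Lefty2 stayed more than 2 log2 below every line on all 3 days, and its call held in each of the 6 fits. Nodal itself and Lefty1 were called lower as well and are named here after their values were seen. Nodal read 7.41, 7.34 and 7.42, against 8.72, 8.83 and 9.10 (−1.50 ± 0.13), and Lefty1 read 6.64, 6.57 and 6.82, against 10.01, 8.95 and 8.60 (−2.51 ± 0.34). The list count was 7 without day 10, 9 without ESCs or Fibroblast-iPSCs and 8 without GMP-iPSCs.

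**Figure D2:**
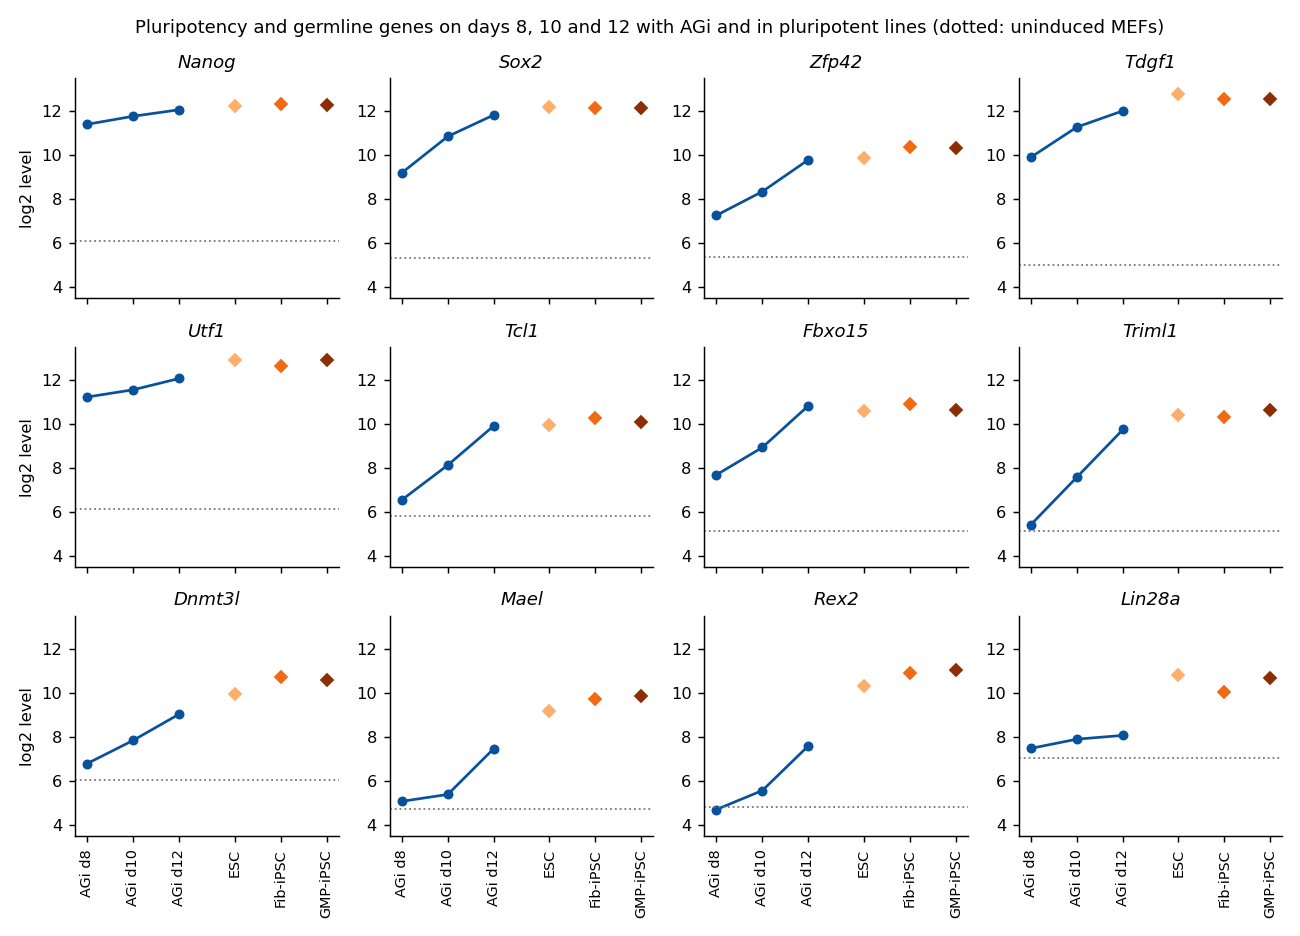
Levels (deposited log2 values, y axis) of 12 genes on days 8, 10 and 12 with AGi (blue, joined) and in ESCs, Fibroblast-iPSCs and GMP-iPSCs (diamonds), with the MEF array as a dotted line, 1 array per point. Fbxo15 and Tcl1 reached the lines by day 12, while Lin28a read 8.09 on day 12 against at least 10.08 in the lines.

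DNA methylation enzymes had 5 of 16 members lower (Dnmt3l, Dnmt3b, Tet1, Dnmt3a and Zfp57) and 1 higher. All 5 lower members are counted in other lists too. Dnmt3l, Dnmt3b and Tet1 are also late pluripotency markers, and Zfp57 is also a pluripotency factor. Dnmt3a and Dnmt3b are also primed epiblast genes. Dnmt3l, the cofactor that stimulates de novo methylation, read 6.80, 7.86 and 9.06 in late AGi cultures, against 9.97, 10.76 and 10.59 in the lines (−2.53 ± 0.53, adjusted p = 0.0150). Dnmt3b, a de novo methyltransferase, read 8.57, 8.80 and 8.34, against 10.89, 9.91 and 10.48 (−1.85 ± 0.26, adjusted p = 0.0038). Dnmt3l was higher on each later day, and Dnmt3b was lowest on day 12. Tet1, which oxidises methylated cytosine, read 9.14, 10.39 and 10.94, against 11.86, 11.83 and 11.85 (−1.68 ± 0.42, adjusted p = 0.0249). The member that was higher, Apobec1, a cytidine deaminase, read 9.87, 9.85 and 10.07 in the cultures, against 8.55, 7.22 and 8.40 in the lines (1.88 ± 0.34). The count of lower members was 2 without day 10, 3 without Fibroblast-iPSCs and 1 without GMP-iPSCs. Dnmt3l lost its call without day 10 or GMP-iPSCs and Tet1 without day 10 or any 1 line (adjusted p up to 0.0744).

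Germline genes, which DNA methylation holds silent in somatic cells, were represented by 15 tested of 27 measured members. Of these, 4 were lower (Mael, Tex11, Tdrd12 and Syce1), with a median of −1.65. Mael, which protects germ cells from transposons, read 5.09, 5.40 and 7.49 in late AGi cultures, against 9.18, 9.75 and 9.89 in the lines (−3.61 ± 0.60, adjusted p = 0.0069). Tex11, an X-linked meiotic gene, read 4.52, 4.59 and 5.32, against 6.73, 6.55 and 6.65 (−1.84 ± 0.22, adjusted p = 0.0023). The mean level of all 27 measured members, tested or not, was 5.61, 5.93 and 7.28 in the cultures, against 7.01, 7.16 and 7.17 in the lines. That mean includes members that failed the low-value filter, and it joins members that moved unequally. Mael was below every line on day 12. At the fitted day 12 level 2 tested members were lower and 1 higher, with a median of −0.63. Tex11 passed the low-value filter only through the lines, and without the filter the list's median was −0.56 (27 genes). Without day 12, the count of lower germline genes was 10. Genes of the 2-cell-like state, a rare state of ESC cultures that resembles the early embryo, had 2 of 13 tested members lower. Zscan4e, a SCAN-domain zinc finger gene, read 4.18, 4.04 and 5.61 in the cultures, against 7.57, 11.10 and 9.02 in the lines (−4.62 ± 0.87, adjusted p = 0.0103). Zscan4b read 4.74, 4.57 and 5.58, against 6.96, 10.41 and 8.40 (−3.63 ± 0.80), and lost its call without day 8, day 10 or GMP-iPSCs (adjusted p up to 0.0642). The lines differed widely in both, with ESCs lowest and Fibroblast-iPSCs highest. Both passed the low-value filter only through the lines. The 2-cell-like count was 5 without ESCs, 3 without day 12, and 1 without day 8, day 10 or GMP-iPSCs.

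Genes of the primed epiblast, the state after implantation, had 7 of 20 tested members lower. Otx2, a transcription factor of the epiblast and forebrain, read 5.61, 6.54 and 7.04 in late AGi cultures, against 8.55, 8.41 and 8.79 in the lines (−2.19 ± 0.34, adjusted p = 0.0056). Car4, a carbonic anhydrase, read 5.51, 5.76 and 6.21, against 9.21, 7.28 and 8.76 (−2.59 ± 0.48, adjusted p = 0.0096). Fgf5, the usual marker of that state, read 5.94, 6.17 and 5.86, against 7.58, 6.74 and 6.81 (−1.05 ± 0.23, adjusted p = 0.0177). Fgf5 lost its call without day 8, day 12 or ESCs (adjusted p up to 0.0584). Car4 and Fgf5 passed the low-value filter only through the lines. In MEFs Fgf5 read 6.64, so it was not classed as awaiting activation.

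Neural genes had 5 of 21 tested members lower and 2 higher. Olig2, a transcription factor of oligodendrocyte and motor neuron progenitors, read 5.54, 5.57 and 6.15 in late AGi cultures, against 9.67, 9.25 and 10.34 in the lines (−3.997 ± 0.30, adjusted p = 0.0008). Tubb3, a neuronal tubulin, read 8.71, 8.14 and 7.50, against 9.80, 10.91 and 10.62 (−2.33 ± 0.38, adjusted p = 0.0063). Olig2 stayed at its MEF level of 5.84, and Tubb3 was lowest on day 12, below its MEF level of 9.16. Pla2g1b, a secreted phospholipase known from pancreas, read 7.92, 8.07 and 7.58, against 11.28, 11.54 and 11.60 (−3.62 ± 0.16, adjusted p = 0.0004). Myl7, the atrial myosin light chain, read 6.24, 5.98 and 6.04, against 7.96, 8.46 and 7.84 (−1.997 ± 0.18). These 4 calls held without any 1 array, but Olig2 and Myl7 passed the low-value filter only through the lines.

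Cell cycle genes had 2 of 38 tested members called, both lower, where 2.82% of all tested genes were lower. Their median was −0.48. Cdc6, which loads the replicative helicase, read 8.77, 8.99 and 8.62 in late AGi cultures, against 9.84, 9.95 and 9.95 in the lines (−1.12 ± 0.13, adjusted p = 0.0019). Ccne1, cyclin E1, read 9.86, 10.10 and 9.69, against 11.07, 10.85 and 11.03 (−1.10 ± 0.14, adjusted p = 0.0028). Phlda2, an imprinted gene that restrains placental growth, read 5.74, 6.15 and 7.58, against 10.52, 7.98 and 9.54 (−2.85 ± 0.71, adjusted p = 0.0255), and its call was lost without day 8, day 10, ESCs or GMP-iPSCs (adjusted p up to 0.0853).

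Sfmbt2, a Polycomb-group gene whose intron carries a large microRNA cluster in mouse, was low together with that cluster. It read 6.07, 6.62 and 6.87 in late AGi cultures, against 9.21, 9.60 and 9.37 in the lines and 6.57 in MEFs (−2.87 ± 0.22, adjusted p = 0.0008). Of the microRNA genes of the cluster, named after their values were seen, Mir669k read 5.83, 6.19 and 6.63, against 9.05, 9.87 and 10.21 (−3.49 ± 0.33). Mir466b-2 read 6.47, 7.28 and 7.66, against 10.48, 10.91 and 10.94 (−3.64 ± 0.30). In MEFs the pair went apart, with Mir669k at 5.07 and Mir466b-2 at 10.81. Of 10 tested genes along the stretch with Mir466b-2, 7 were lower while near the MEF level in the lines, where 79 of all 13529 tested genes were. That stretch was counted from the first to the last such gene, so its ends were members by construction. For Mir466b-2, day 8 minus day 6 was −3.37 with AGi and −3.03 with OKSM alone, single arrays in each case. What form of these repeated microRNAs the probe sets read is not given, and 0 of 11 had an entry in the sequence table.

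The position of a gene between MEFs (0%) and the pluripotent mean (100%) showed how far activation had gone. In the 298 not yet activated genes day 8 had a median position of 8.99%, with 23.8% at day 10 and 47.1% at day 12. On day 12, 84 genes stood under 25% of the way, 163 between 25% and 75% and 51 over 75%. Since these genes were picked as low over the 3 days, their positions describe the class and test nothing. Of the class, 105 genes were higher on day 12 than on day 8 by at least 1 log2. The median difference was −1.53 and 83 genes differed by at least 2 log2. The class held 191 genes without day 8 and 187 without GMP-iPSCs.

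A fit with a straight trend over the days took out part of this spread. In it, 29 genes (0.214%) rose over days 8 to 12 and 3 (0.0222%) fell. The risers included Sox2 at 0.66 ± 0.06 log2 per day (adjusted p = 0.0290), Zfp42, the Rex1 gene and a classical marker, at 0.63 ± 0.07 (adjusted p = 0.0469), and Tcl1, a coactivator of AKT, at 0.84 ± 0.05 (adjusted p = 0.0131). Triml1, a TRIM-like gene of early embryos, rose as well: it read 5.44, 7.60 and 9.77 in the cultures, against 10.43, 10.34 and 10.64 in the lines (slope 1.08 ± 0.05, adjusted p = 0.0064). Fbxo15, an F-box gene controlled by Oct4 and Sox2, read 7.70, 8.95 and 10.85, against 10.60, 10.93 and 10.67, and its fitted day 12 level differed from the lines by 0.01 (adjusted p = 0.979). Tcl1 and Sox2 differed by −0.22 and −0.21 there. Of the named zinc finger genes, Zfp640 rose by 1.31 ± 0.15 per day and still differed by −1.55 at day 12 (adjusted p = 0.0678), and Zfp981 rose by 1.02 ± 0.12 and differed by −2.35 (adjusted p = 0.0140). The genes that fell were Krtdap (−0.66 ± 0.06), Elmod1 (−0.58 ± 0.05) and Sprr2b (−0.56 ± 0.06), named after their values were seen.

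At the fitted day 12 level, 815 genes (6.02%) were higher and 211 (1.56%) lower than in the lines. Of the not yet activated genes, 141 of 298 were still called there. Of the not yet silenced genes, it was 462 of 625. Of 37 pluripotency factors, 5 were still lower, and of 29 late pluripotency markers, 9.

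**Figure D3:**
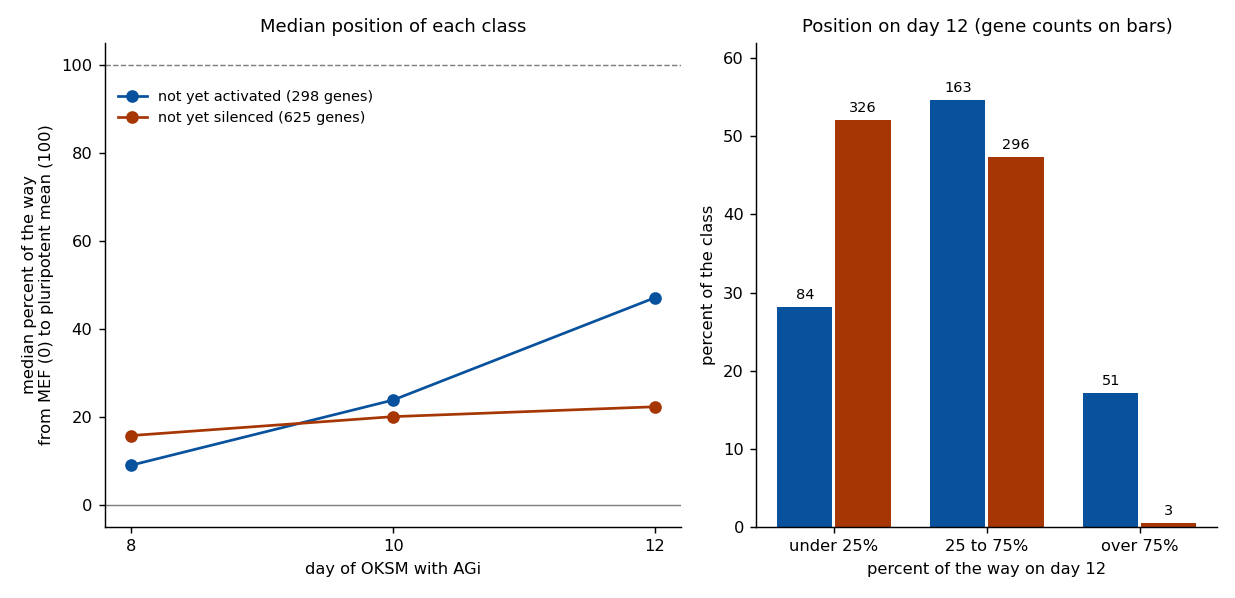
Left: median position (y axis, percent of the way from the MEF array at 0 to the pluripotent mean at 100) of the 298 not yet activated and 625 not yet silenced genes on days 8, 10 and 12 with AGi. Right: percent of each class (y axis) under 25%, between 25% and 75% and over 75% of the way on day 12, with gene counts on the bars. Not yet activated genes went to 47.1% by day 12, and not yet silenced genes to 22.3%.

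The not yet silenced genes numbered 625, against 298 not yet activated, but 458 against 486 with arrays shifted to 1 median. Day 8 had a median position of 15.7%, with 20.03% at day 10 and 22.3% at day 12. On day 12, 326 of the 625 genes stood under 25% of the way, 296 between 25% and 75% and 3 over 75%. The mean of 170 genes lay above the MEF level itself. The median difference was 1.55, and 145 genes differed by at least 2 log2. Without any 1 array the class held between 519 and 708 genes.

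Fibroblast genes of matrix and surface had 22 of 45 tested members (46 measured) higher in late AGi cultures, with a median of 1.16. Not all of these were not yet silenced: Igfbp3 was an upward overshoot, and Lum was as low in MEFs as in the lines, within 1 log2. Ogn, the small leucine-rich proteoglycan osteoglycin, read 10.75, 10.70 and 11.49 in the cultures, against 6.38, 6.78 and 5.44 in the lines (4.78 ± 0.37, adjusted p = 0.0008). Aspn, asporin of the same family, read 9.23, 8.95 and 9.97, against 5.75, 5.61 and 4.54 (4.08 ± 0.38, adjusted p = 0.0013). Dcn, decorin, read 9.05, 9.45 and 9.80, against 6.43, 7.35 and 5.45 (3.02 ± 0.46, adjusted p = 0.0051). All 3 proteoglycans were highest on day 12 and lowest in GMP-iPSCs. Day 8 minus day 6 was 4.42 for Aspn, 1.98 for Ogn and 1.63 for Dcn with AGi, and Aspn passed the low-value filter only through the cultures. Thy1, the surface antigen lost early by reprogramming fibroblasts, read 10.50, 10.39 and 10.90, against 8.44, 9.41 and 7.44 (2.16 ± 0.46, adjusted p = 0.0150), with 11.63 in MEFs. Mgp, an inhibitor of matrix calcification, read 12.44, 12.10 and 12.54, against 8.54, 9.52 and 8.25 (3.59 ± 0.32). Fbln5, an elastic fibre protein, was lowest on day 12, at 10.51, 10.13 and 8.74, against 7.39, 8.27 and 6.51 (2.40 ± 0.57). The list's mean level was 10.08, 9.92 and 10.11 in the cultures, against 8.56, 9.30 and 8.01 in the lines and 10.58 in MEFs. The Fibroblast-iPSC array carried more of these transcripts than the other two lines, and without it 29 members were called. Without day 8, day 10, ESCs or GMP-iPSCs it was 14. Fbln5 lost its call without any of those 4 arrays (adjusted p up to 0.0770).

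Collagen chains had 10 of 21 tested members higher, with a median of 1.04. Without genes of the step between day 6 and day 8 described below, it was 5 of 16 with a median of 0.57, and without the low-value filter 9 of 26 with the same median to 2 decimals. Col6a1, a beaded filament chain, read 10.87, 10.74 and 11.002 in late AGi cultures, against 8.15, 9.29 and 7.68 in the lines (2.50 ± 0.38, adjusted p = 0.0051). Col12a1 read 10.41, 9.95 and 11.29, against 8.10, 9.39 and 6.64 (2.51 ± 0.68, adjusted p = 0.0335). Col1a1, the main chain of fibrillar collagen, read 11.04, 10.76 and 10.19, against 9.52, 10.70 and 8.75 (1.005 ± 0.48, adjusted p = 0.156). Its groups overlapped, with day 12 below Fibroblast-iPSCs. Lama4, a laminin chain of vessel and fibroblast basement membrane, read 10.46, 10.35 and 9.93, against 6.39, 6.65 and 6.03 (3.89 ± 0.21, adjusted p = 0.0004). Lama4 was above its MEF level of 8.88 on all 3 days. Col12a1 kept its call only without Fibroblast-iPSCs (adjusted p up to 0.0811).

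Matrix proteases and their inhibitors had 11 of 21 tested members higher and 1 lower, with a median of 1.71. The higher members included Mmp13 and Mmp3, whose MEF level lay within 1 log2 of the lines, so they were not classed as not yet silenced. Without genes of the step between day 6 and day 8, 5 of 15 were higher and the median was 0.88. Adamts1, a proteoglycan-cleaving protease, read 9.36, 9.75 and 10.82 in late AGi cultures, against 7.04, 7.34 and 7.26 in the lines (2.76 ± 0.35, adjusted p = 0.0029). Mmp2, gelatinase A, named after its values were seen, read 11.72, 11.86 and 12.40, against 9.26, 9.79 and 8.75 (2.72 ± 0.29). Both were highest on day 12. Adamts9, the member that was lower, read 6.56, 6.996 and 7.69, against 8.35, 8.26 and 8.27 (−1.21 ± 0.27), and lost its call without day 8, day 10 or GMP-iPSCs (adjusted p up to 0.0622).

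Mesenchymal transcription factors had 16 of 36 tested members (39 measured) higher, with a median of 1.02. Tbx15, a T-box factor of limb and trunk mesenchyme, read 10.52, 10.25 and 9.79 in late AGi cultures, against 6.94, 8.13 and 6.39 in the lines (3.03 ± 0.43, adjusted p = 0.0042). Prrx1, a homeobox factor of limb mesenchyme, read 11.36, 11.15 and 11.40, against 8.63, 9.88 and 7.15 (2.75 ± 0.61, adjusted p = 0.0174). Twist1, a driver of mesenchymal state, read 8.86, 8.42 and 8.69, against 6.77, 7.02 and 6.74 (1.82 ± 0.15, adjusted p = 0.0010). Twist1 stood at its MEF level of 8.64. Snai2, a repressor of epithelial genes, read 10.32, 10.30 and 10.42, against 8.34, 9.52 and 7.47 (1.90 ± 0.46, adjusted p = 0.0239), and Zeb1 differed by 0.65 ± 0.28 (adjusted p = 0.119). Foxd1, a forkhead factor, was lower on day 12 than on day 8, at 9.40, 8.87 and 7.05, against 6.17, 6.12 and 6.36 (2.22 ± 0.55). Foxd1 passed the low-value filter only through the cultures. Calls were lost for Prrx1 without day 8 or day 10, for Snai2 without any AGi day or ESCs, and for Foxd1 without day 8, day 10 or any 1 line (adjusted p up to 0.0867).

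Hox genes, which record the body position of the fibroblasts, had 7 of 23 tested members higher (32 measured), with a median of 0.72. Hoxd13, the most distal limb gene, read 9.48, 9.15 and 9.34 in late AGi cultures, against 5.80, 6.83 and 6.41 in the lines (2.98 ± 0.26, adjusted p = 0.0011). Hoxa9 read 8.29, 7.85 and 7.57, against 5.61, 6.15 and 5.83 (2.04 ± 0.22, adjusted p = 0.0018). Both calls held without any 1 array, but Hoxa9 passed the low-value filter only through the cultures. Without genes of the step between day 6 and day 8, which include Hoxd13, 4 of 17 Hox genes were higher. On chromosome 6, Hoxa5, Hoxa9, Hoxa10 and Hoxa13 were called higher among 6 tested neighbours, where 7.04% of all tested genes were higher. The neighbours were counted from the first to the last called gene, so both ends were calls by construction.

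Signalling lists gave small counts, and the genes described here are single calls. Over all tested genes, 7.04% were higher and 2.82% lower. Of 22 tested Notch pathway genes, 2 were higher and 2 lower (Dtx1 and Rbpj), with a median of 0.09 that turned to −0.13 with arrays shifted to 1 median, and the 2 lower calls were both lost without day 8, day 10 or GMP-iPSCs. Of 24 Wnt targets, 4 were higher, with a median near 0. Jag1, a Notch ligand, read 10.68, 10.34 and 9.99 in late AGi cultures, against 8.58, 8.79 and 8.03 in the lines (1.88 ± 0.25, adjusted p = 0.0033). Dkk2, a secreted Wnt modulator, read 8.54, 8.78 and 8.83, against 6.50, 7.37 and 6.38 (1.97 ± 0.26, adjusted p = 0.0034). Axin2, a feedback target of beta-catenin, read 8.32, 7.74 and 8.53, against 7.60, 7.34 and 7.41 (0.75 ± 0.21, adjusted p = 0.0379), which misses 1 log2. Of 31 TGF-beta targets, 7 were higher and 3 lower, and the median of 0.05 turned to −0.18 with arrays shifted to 1 median. Tgfbi, a secreted matrix protein named for its induction by TGF-beta, read 11.09, 11.09 and 10.75, against 8.23, 8.56 and 9.02 (2.37 ± 0.21, adjusted p = 0.0012). The count of higher TGF-beta targets was 4 without any AGi day or GMP-iPSCs. Fosl2, an AP-1 subunit, read 10.22, 10.14 and 10.73, against 8.41, 8.86 and 8.36 (1.82 ± 0.20, adjusted p = 0.0020), 1 of 3 AP-1 and immediate early genes called higher among 24. That count was 1 higher and 1 lower without day 12, after quantile normalization and with arrays shifted to 1 median. Pdgfra, the PDGF receptor alpha of fibroblasts and primitive endoderm, read 8.36, 8.62 and 10.30, against 6.60, 7.03 and 6.02 (2.54 ± 0.52, adjusted p = 0.0136), and lost its call without GMP-iPSCs (adjusted p up to 0.0513).

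Cell cycle inhibitors and p53 targets had 7 of 26 tested members higher, and 4 higher and 1 lower with arrays shifted to 1 median. Cdkn2b, the p15 inhibitor, read 9.89, 10.06 and 10.10 in late AGi cultures, against 7.95, 8.86 and 7.90 in the lines (1.78 ± 0.26, adjusted p = 0.0044). Cdkn2a, its neighbour that encodes p16 and p19Arf, read 9.70, 9.69 and 9.43, against 7.75, 7.89 and 7.84 (1.78 ± 0.12, adjusted p = 0.0005). Cdkn2a exceeded its MEF level of 8.48 on all 3 days. Cdkn1a, p21, read 12.86, 12.77 and 12.83, against 11.62, 12.03 and 11.95 (0.95 ± 0.13, adjusted p = 0.0040), just short of 1 log2. Mir31, a microRNA gene of the same stretch of chromosome 4, read 7.52, 6.70 and 7.59, against 6.35, 6.06 and 6.02 (1.13 ± 0.25, adjusted p = 0.0172). Its mature form, at chr4:88910614-88910635 on the minus strand (RefSeq, GRCm38.p6), is shown with Mir290a as the microRNA of the pluripotent side, with seeds (bases 2 to 8) in capitals.
miR-31-5p: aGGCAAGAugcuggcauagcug
miR-290a-3p, chr7:3218674-3218697, plus strand: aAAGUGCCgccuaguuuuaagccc
Mir290a, first of the cluster that ESCs express, read 6.98, 7.82 and 9.63 in the cultures, against 8.60, 8.97 and 8.27 in the lines (−0.47 ± 0.62, adjusted p = 0.590). On day 12 it was above every line. Mir31 was the only fibroblast microRNA called of 6 tested, and the median of that list was −0.17. Of 4 tested pluripotency microRNAs, 0 were called, with a median of −0.13. Both microRNAs shown were chosen after their values were seen. Mir31 passed the low-value filter only through the cultures. It lost its call without day 8, day 12 or GMP-iPSCs and with arrays shifted to 1 median (adjusted p up to 0.0637 without 1 array).

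Immune genes were among the unsilenced as well. Of 21 inflammatory genes, 4 were higher (Ccl7, Cxcl5, Il33 and Cxcl12), with a median of 0.60, where 7.04% of all tested genes were higher. Ccl7 lost its call without day 8, day 12, ESCs or GMP-iPSCs (adjusted p up to 0.0811). Cxcl5, a neutrophil chemokine, read 8.91, 8.41 and 8.45 in late AGi cultures, against 6.45, 6.56 and 6.52 in the lines (2.08 ± 0.15, adjusted p = 0.0008). B2m, the light chain of MHC class I, read 12.81, 12.69 and 12.91, against 11.22, 11.78 and 10.79 (1.54 ± 0.24, adjusted p = 0.0057). Of 17 interferon genes, 4 were higher, but 1 higher and 1 lower with arrays shifted to 1 median. Without day 8 or GMP-iPSCs 2 inflammatory genes were called, without Fibroblast-iPSCs 8, and 2 interferon genes were called without day 8, day 10 or GMP-iPSCs. Of the macrophage markers, 1 of 17 tested was higher (Gpnmb), a share near the 7.04% of all tested genes. The 7 defining markers summed to 49.1 to 50.7 in the cultures and 47.8 to 49.6 in the lines, and Ptprc and Adgre1 were below the array median on all 6 arrays. Keratinocyte markers were below it throughout, and endothelial markers summed to 25.02 to 26.5 in the cultures and 28.1 to 28.8 in the lines.

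Xist, the RNA that silences the inactive X chromosome, had the second largest difference of the class. It read 12.46, 12.54 and 12.18 in late AGi cultures, against 7.16, 9.49 and 7.79 in the lines and 11.86 in MEFs (4.25 ± 0.54, adjusted p = 0.0030). Of 449 tested X-linked genes, 35 were higher and 25 lower, where 7.04% of all tested genes were higher and 2.82% lower. The X-linked median was −0.04 against 0.01 over all tested genes. The not yet activated class held 21 X-linked genes among its 298, and the not yet silenced class 26 among its 625. Whether X-linked genes differ from the rest was not tested. Sex is not among the labels. The Y-linked Eif2s3y read 5.10, 5.12 and 4.73 in the cultures, against 6.18, 5.93 and 5.03 in the lines, all below the array medians, so the sex of the cells and the state of their X chromosomes cannot be told apart. Sgce, an imprinted sarcoglycan gene, read 9.69, 9.65 and 9.64, against 7.54, 7.59 and 7.74 (2.04 ± 0.10, adjusted p = 0.0004), the tightest of the named calls by standard error. Rian, of the imprinted Dlk1-Dio3 cluster, read 9.64, 9.46 and 9.43, against 10.20, 9.56 and 6.86 (0.64 ± 0.79, adjusted p = 0.562), with GMP-iPSCs alone low. Mest, a further imprinted gene, read 8.65, 8.35 and 8.60, against 6.31, 9.85 and 10.64 (−0.40 ± 1.02, adjusted p = 0.787), with ESCs alone low.

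Of 39 tested epithelial genes, 4 were higher (Pkp1, Dsp, Cldn3 and Dsc2), 3 of which belong to desmosomes. Over all tested genes 7.04% were higher, and a count of 4 is too small to set the list apart. With arrays shifted to 1 median the epithelial count was 2 higher and 1 lower. Cdh1, E-cadherin, read 11.44, 11.73 and 11.45 in late AGi cultures, against 11.91, 11.53 and 11.85 in the lines (−0.22 ± 0.15, adjusted p = 0.280). Epcam read 10.52, 11.16 and 10.72, against 10.96, 10.54 and 10.69 (0.07 ± 0.19, adjusted p = 0.812), a difference that was −0.16 with arrays shifted to 1 median. A p above the threshold does not show equality, but both stood far above MEFs, at 6.56 and 5.99.

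**Figure D4:**
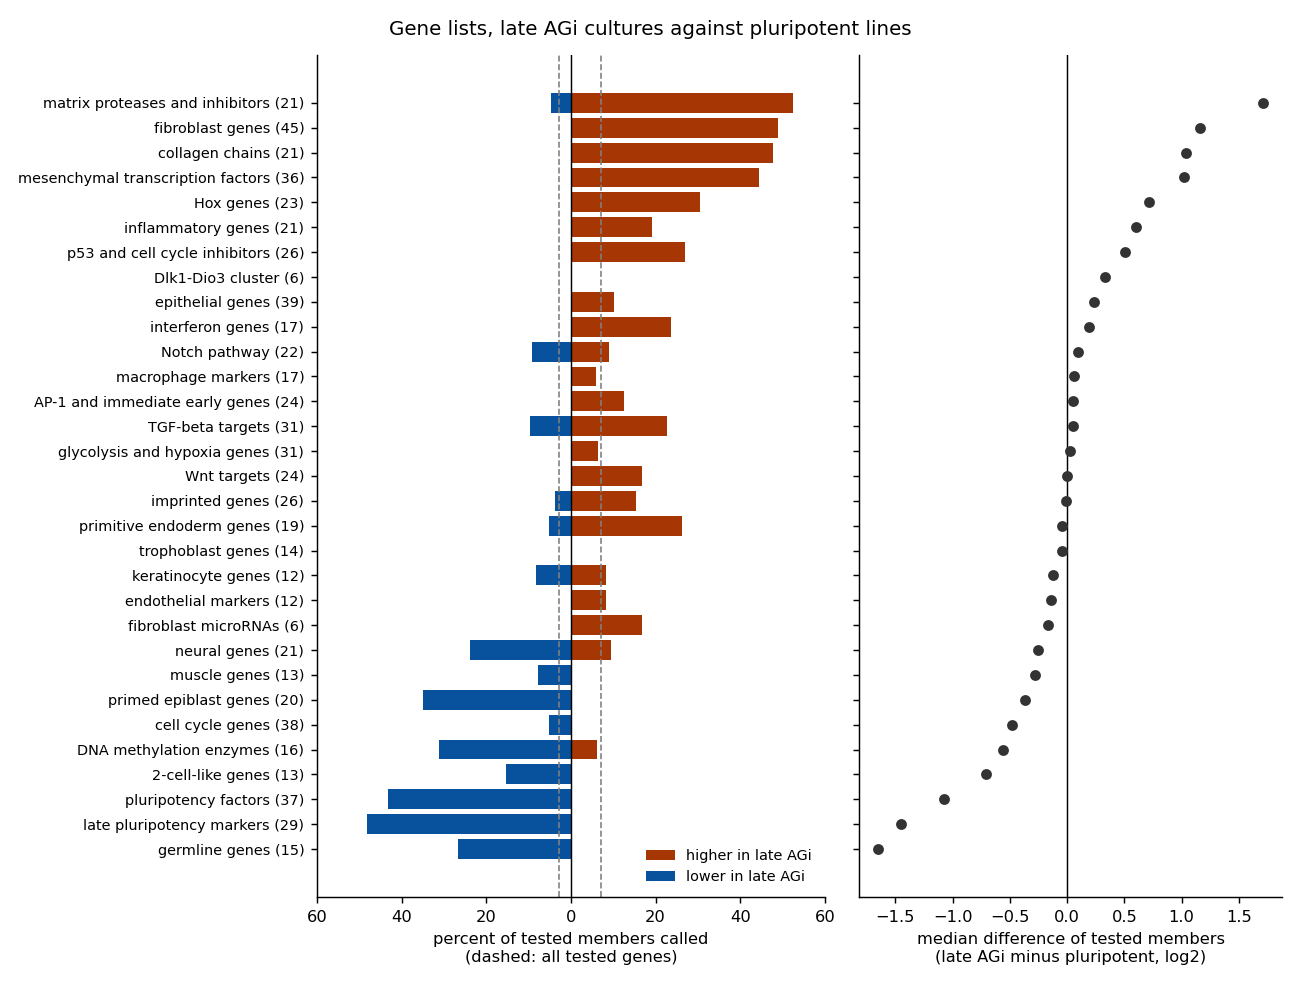
Left: percent of tested members (x axis) called higher (right of 0) or lower (left of 0) in late AGi cultures for each gene list with at least 5 tested members, whose number stands in brackets; dashed lines mark 7.04% and 2.82% over all tested genes. Right: median difference of the tested members (late AGi minus pluripotent, log2). Matrix protease, fibroblast and collagen lists lie at the top with medians of 1.71, 1.16 and 1.04, and the germline and late pluripotency lists at the bottom with −1.65 and −1.45.

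Few genes overshot. The 15 that did so upward had a median difference of 1.20. Igfbp3, an IGF-binding protein, read 11.49, 11.05 and 11.77 in late AGi cultures, against 9.51, 8.82 and 8.99 in the lines and 7.64 in MEFs (2.33 ± 0.24, adjusted p = 0.0016). Podxl, the anti-adhesive sialomucin podocalyxin, read 11.01, 10.84 and 10.27, against 9.22, 8.98 and 9.50 (1.47 ± 0.22, adjusted p = 0.0051). Acot1, a fatty acyl-CoA thioesterase, read 8.62, 8.29 and 8.24, against 6.38, 6.45 and 7.29 (1.68 ± 0.26, adjusted p = 0.0053). Dsp, desmoplakin, read 9.42, 9.51 and 9.46, against 8.19, 7.93 and 8.55 (1.24 ± 0.17, adjusted p = 0.0034). Prkaa2, the alpha 2 subunit of AMP kinase, read 10.52, 10.72 and 9.88, against 9.23, 8.96 and 9.15 (1.26 ± 0.22). Tek, the angiopoietin receptor, read 9.20, 8.88 and 8.29, against 6.68, 7.37 and 8.06 (1.42 ± 0.38, adjusted p = 0.0310), nearest to the lines on day 12. Cultures with OKSM alone were also past the lines for Igfbp3 (12.45, 12.51 and 12.56), Podxl (11.39, 11.42 and 11.42) and Tek (10.21, 10.28 and 10.16). At the fitted day 12 level 5 of the 15 were still called. The count was 9 without day 8 or day 10, and Tek lost its call without day 8, day 10, ESCs or Fibroblast-iPSCs (adjusted p up to 0.0947).

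The 4 downward overshoots were genes high in MEFs. Cnn1, the smooth muscle calponin, read 7.32, 6.63 and 7.15 in late AGi cultures, against 8.99, 9.59 and 8.87 in the lines and 12.30 in MEFs (−2.12 ± 0.25, adjusted p = 0.0022). Tagln, transgelin, read 9.46, 8.50 and 9.21, against 9.80, 10.59 and 10.39 (−1.20 ± 0.30, adjusted p = 0.0250). Npr3, the natriuretic peptide clearance receptor, read 6.44, 6.35 and 6.67, against 7.05, 7.91 and 7.96 (−1.15 ± 0.25), and Dgkk, a diacylglycerol kinase, differed by −1.38 ± 0.14. Cnn1 and Tagln are contractile genes and TGF-beta targets. With OKSM alone, Tagln stood at 11.60, 11.37 and 10.97 and Npr3 at 9.11, 9.17 and 9.38, above the lines. Dgkk stood at 5.65, 5.55 and 5.96 with OKSM alone, below the lines, and Cnn1 at 9.49, 8.83 and 7.84, below every line on days 10 and 12. Dgkk passed the low-value filter only through the lines. The count was 2 without day 10; Tagln lost its call without day 10, Fibroblast-iPSCs or GMP-iPSCs and Npr3 without day 8, day 10 or GMP-iPSCs (adjusted p up to 0.0828).

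**Figure D5:**
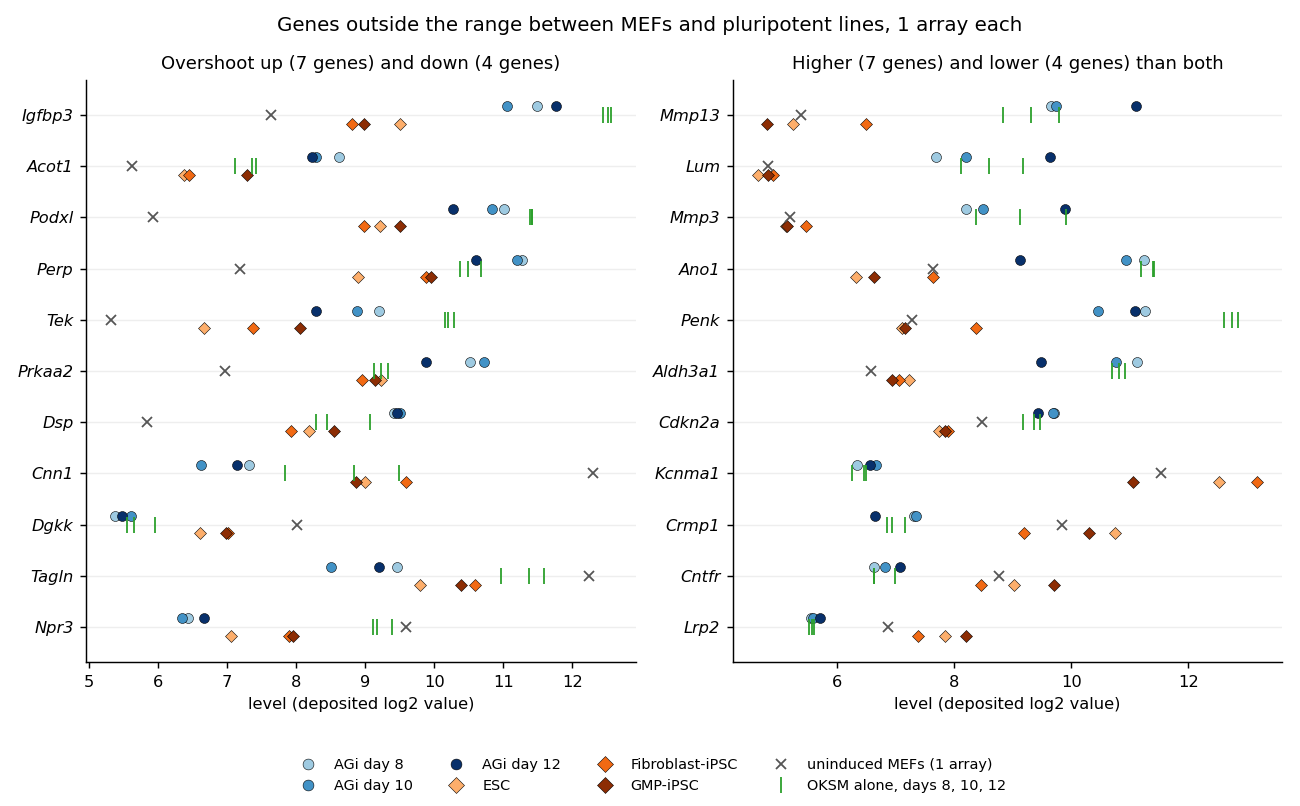
Levels (deposited log2 values, x axis) of 11 overshoot genes (left) and of 11 genes called although MEFs and the pluripotent mean lay within 1 log2 (right), 1 point per array: late AGi in blue circles, pluripotent lines in orange diamonds, MEFs as a cross and OKSM alone as green ticks. Igfbp3 stood between 11.05 and 11.77 in late AGi cultures, above the 9.51 of ESCs, and Kcnma1 between 6.33 and 6.66, below the 11.06 of GMP-iPSCs.

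A further 313 genes were higher in late AGi cultures although MEFs lay within 1 log2 of the pluripotent mean. Mmp13, a collagenase, read 9.66, 9.73 and 11.10 in the cultures, against 5.24, 6.50 and 4.80 in the lines and 5.39 in MEFs (4.65 ± 0.53, adjusted p = 0.0021). Mmp3, stromelysin, read 8.20, 8.49 and 9.90, against 5.12, 5.46 and 5.14 (3.62 ± 0.42, adjusted p = 0.0021). Lum, the proteoglycan lumican, read 7.70, 8.20 and 9.64, against 4.65, 4.90 and 4.82 (3.72 ± 0.46, adjusted p = 0.0025). Mmp3 and Lum passed the low-value filter only through the cultures. These 3 matrix genes were highest on day 12 and were high with OKSM alone too, where Lum read 8.11, 8.60 and 9.18. Penk, proenkephalin, read 11.26, 10.45 and 11.09, against 7.11, 8.38 and 7.16 (3.39 ± 0.38). Ano1, a calcium-activated chloride channel, read 11.25, 10.94 and 9.13, against 6.32, 7.64 and 6.63 (3.57 ± 0.60, adjusted p = 0.0068), and Aldh3a1, an aldehyde dehydrogenase, read 11.12, 10.77 and 9.48, against 7.23, 7.05 and 6.94 (3.38 ± 0.40). Ano1 and Aldh3a1 were nearest to the lines on day 12. Gpnmb, a glycoprotein of macrophages and other cells, read 9.91, 9.66 and 10.52, against 7.47, 7.14 and 7.15 (2.77 ± 0.23).

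The 79 genes that were lower while MEFs lay within 1 log2 of the pluripotent mean included Kcnma1, the pore of the large-conductance potassium channel, which had the largest difference of all. It read 6.33, 6.66 and 6.57 in late AGi cultures, against 12.52, 13.18 and 11.06 in the lines and 11.53 in MEFs (−5.73 ± 0.49, adjusted p = 0.0011). Crmp1, a cytosolic protein of axon guidance, read 7.31, 7.35 and 6.64, against 10.74, 9.19 and 10.30 (−2.98 ± 0.40, adjusted p = 0.0035). Cntfr, the receptor of ciliary neurotrophic factor, read 6.62, 6.81 and 7.08, against 9.02, 8.46 and 9.71 (−2.22 ± 0.31). Lrp2, the endocytic receptor megalin, read 5.55, 5.59 and 5.71, against 7.84, 7.37 and 8.21 (−2.19 ± 0.21). Lrp2 passed the low-value filter only through the lines. All 4 calls held without any 1 array, and cultures with OKSM alone were low too, with Lrp2 at 5.60, 5.52 and 5.57.

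Part of these classes coincided with a step between day 6 and day 8 that both arms showed. Of the tested genes, 146 differed by at least 1 log2 between these days in the same direction with and without AGi, and 89 of them were called higher and 14 lower, with a median of 1.41. For Kcnma1, day 8 minus day 6 was −5.22 with AGi and −5.53 with OKSM alone, and for Penk it was 4.07 with AGi and 5.08 with OKSM alone. Lum, Mmp3, Mmp13, Ogn, Aspn, Dcn, Hoxd13, Pdgfra and Tgfbi were such genes too. No label names a batch for these days, each day has 1 array per arm, and the part of the step in the results was not tested. Without the 146 genes, 864 were higher and 367 lower, and 560 were not yet silenced. The collagen, protease and Hox counts without these genes are given above, and 18 of 38 fibroblast genes and 16 of 34 mesenchymal transcription factors were higher.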

How the data were processed

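RNA of each sample was hybridised to 1 Affymetrix array. The authors deposited log2 expression values. The submitters' processing notes name RMA and the Affymetrix Expression Console. Versions, genome build and scan dates were not given in the sources used. The table holds 41345 probe sets on 18 arrays, of which 23521 had 1 gene symbol, 1814 several and 15820 none outside 190 controls. A gene with more than 1 probe set (1082 genes) was represented by the probe set with the highest mean level, with the mean of its probe sets as an alternative. Groups came from the sample titles. The groups were compared with limma 3.58.1 in R 4.3.3 (2 means, 4 residual degrees of freedom), with Benjamini-Hochberg adjustment over 13529 genes, and a second fit added a slope over days 8 to 12 (3 residual degrees of freedom). An exact permutation test of 3 against 3 arrays cannot go below p = 0.10. The number of arrays limits the precision.

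Members and gene lists were chosen with earlier results of these data known. The lists share members, among them Mael, Nodal and Otx2, so counts of different lists are not independent. Named genes were those of largest difference in each class, up to 4 called members of each list, those with the largest and smallest change over the days, and a set of key genes. On simulated data for the comparison of late AGi cultures with pluripotent lines over 13529 genes, an adjusted p under 0.05 recovered 85.1% of genes changed by 1 log2 and 97.0% of those changed by 2 log2. For the slope it recovered 8.96% at 0.25 log2 per day and 82.1% at 0.5. False calls numbered 17 for the level and 4 for the slope. The simulated noise was normal and independent between arrays, so recovery in the real arrays may be lower. Alternatives covered the low-value filter, probe set choice, scaling, variance model, arrays in the fit, thresholds, the MEF limit and leaving out each array.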

Additional observations from a re-analysis of the deposited data

Results flagged for a closer look

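Probe sets without a single gene symbol lie outside the comparison of genes. Of 17634 such probe sets, 6974 passed the same filter and were tested with limma, and 181 were higher and 200 lower in late AGi cultures than in the pluripotent lines. What they read is not named here. Groups of 3 arrays are too small for a test of single outlying arrays.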

How the results depend on the processing

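Of 168 named genes, 9 changed sign in at least 1 setting, none of them among the 137 called. With arrays shifted to 1 median the difference was −0.0808 for Dppa3 and −0.161 for Epcam. At the fitted day 12 level it was 0.0088 for Fbxo15, 0.427 for Igf2, 0.85 for Mir290a and 0.155 for Tfcp2l1. Without 1 array each it ran from −0.194 to 0.544 for Dppa3, −0.113 to 0.206 for Epcam, −0.451 to 0.144 for Lef1, −1.71 to 0.45 for Mest, −1.22 to 0.108 for Mir290a and −0.366 to 1.30 for Rian. With arrays shifted to 1 median, 646 genes were lower, 486 not yet activated, 458 not yet silenced, 8 overshot downward, and 189 were higher and 152 lower with MEFs near the lines. With the low-value filter at the 75th percentile, which tests fewer genes, the counts were 409 higher, 181 lower, 153 not yet activated, 305 not yet silenced, 2 downward overshoots, and 94 and 26 with MEFs near the lines. Limma's treat against 1 log2 called 96 higher, 40 lower, 32 not yet activated, 66 not yet silenced, 1 upward and 0 downward overshoots, and 29 and 8 with MEFs near the lines. An adjusted p under 0.01 left 225 lower, 162 not yet activated, and 8 upward and 2 downward overshoots. A least difference of 2 log2 left 198 higher, 96 lower, 83 not yet activated, 145 not yet silenced, 1 upward and 1 downward overshoot, and 52 and 12 with MEFs near the lines. At the fitted day 12 level, 211 were lower, 152 not yet activated and 2 overshot downward. A 2 log2 limit on the MEF difference gave 174 not yet activated, 306 not yet silenced, 7 and 1 overshoots, and 640 and 206 with MEFs near the lines. Without 1 array each, counts ran from 786 to 998 higher, 253 to 546 lower, 187 to 443 not yet activated, 519 to 708 not yet silenced, 9 to 21 upward and 2 to 6 downward overshoots, and 249 to 363 and 59 to 97 with MEFs near the lines. The trend fit found 46 rising genes with a robust variance trend and 14 after quantile normalization, against 29. Leaving out the genes with the day 6 to day 8 step was chosen after seeing the data. Beyond the alternatives whose construction tests fewer genes or sets a stricter threshold, the cause was not tested. Of 137 named called genes, 50 lost the call without at least 1 array. No paired analysis was possible because the labels give the days and the lines no replicate numbers that they share. Signal over background is unknown, which limits values under the array medians.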
